A study of Mus musculus with 12 samples.

Results

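Asynchronous S38D cells were compared with asynchronous S38A cells, that is, RPL12 with serine 38 replaced by aspartate, which carries a negative charge as a phosphorylated serine does, against RPL12 with the same serine replaced by alanine, which cannot be phosphorylated. Each side had 2 libraries, so the comparison used 4 of the 12 libraries in the series, chosen by their labelled line and state. The assay counted the 3′ ends of mRNA in 19DN cells, a sorted subline without reporters of 19PP, a murine lymphoma of B cells that grew from Cγ1-Cre Myc/P110*flSTOP bone marrow in a Rag2-/-γC-/- host. The labels call these S38D and S38A cultures asynchronous and tie nocodazole to the mitotic ones, and asynchronous cells with wild-type RPL12 (WT, 2 libraries) serve here as a reference level. S38D and S38A mitotic cells (2 libraries each), kept in 100 ng/mL nocodazole, a microtubule poison, for 8 h and then in fresh medium for 10 min, gave the same comparison in other libraries. All cultures were harvested in cycloheximide at 100 µg/mL, so each group carries that exposure. Whether a mutant line is 1 clone or several is not stated in the labels, nor whether the 2 libraries of a group came from separate cultures. The p-values then measure only the spread between libraries of a group, which may be technical. That spread was estimated over all 12 libraries, not from the 4 compared alone.

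RPL12, also named uL11, is a protein of the large ribosomal subunit. It forms the base of the stalk, with the acidic P proteins, at the site where GTPase translation factors dock on the ribosome. Serine 38 is a phosphorylation site, and the series asks how its phosphorylation bears on translation in mitosis. The codon that the lines alter is shown here in the reference sequence, since the 3′ reads lie far from it and do not show which codon a library carries. It lies in exon 3 of Rpl12, in the coding sequence, at chr2:32962574-32962576 on the plus strand of GRCm38 (GENCODE M21 transcript, not a read of these cells), and the window runs from codon 32 to codon 44 with codon 38 in capitals.
Rpl12 codons 32 to 44: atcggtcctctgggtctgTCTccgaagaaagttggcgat

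Gene reads numbered 6523991 and 5660515 in the S38D libraries and 6587997 and 6046872 in the S38A libraries, against 3432875 to 6587997 over the series, and spike-in RNA made up 3.34% and 2.83% of that number in S38D and 3.31% and 3.04% in S38A. The 2 S38D libraries stood apart from each other: their log2 ratio had an SD of 0.588 over genes, against 0.229 between the 2 S38A libraries. Of 7062 genes averaging at least 10 CPM (counts relative to library size, TMM-scaled), 517 differed more than 2-fold between the S38D libraries, against 23 between the S38A libraries. These values do not show which of the 2 S38D libraries is the unusual one. Both lines had the RNA of B cells. All 10 B cell markers were tested, with summed levels of 9726 and 8290 CPM in S38D and 10284 and 10764 CPM in S38A. Of 10 T and NK cell markers 8 had no read in these 4 libraries, and so had 7 of 9 myeloid markers.

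Rpl12 itself, at chr2:32961559-32965345, had 35.8 and 28.3 CPM in S38D, against 41.3 and 44.7 CPM in S38A and 39.9 and 39.1 CPM in WT. Both S38D libraries lay below both S38A libraries, but the difference of -0.42 on the log2 scale (SE 0.162, n = 2 each) had an adjusted p = 0.137. Here and below, adjusted p-values come from edgeR's quasi-likelihood test on the counts, with Benjamini-Hochberg adjustment over all 10477 genes tested, and genes with an adjusted p under 0.05 are called. The Rpl12 difference was -0.62 without S38D replicate 1 and -0.26 without S38D replicate 2. It was -0.50 and -0.37 without S38A replicates 1 and 2. Under spike-in scaling it was -0.36, also without a call. Rplp0, which encodes the P0 protein of the stalk, had 2516 and 2240.3 CPM in S38D and 2281 and 2427 CPM in S38A. Its partners Rplp1 and Rplp2 had log2 differences of 0.05 and -0.26, and none of the 4 stalk genes was called. The sign of the small Rplp0 and Rplp1 differences changed with a library left out or, for Rplp0, with the scaling. In the mitotic libraries 2 of the 4 stalk genes were called higher in S38D, where 7.51% of all genes tested were higher. The median of the 4 was 0.30 there, against -0.12 in asynchronous cells. None of the 4 was called in the test of a change between states given below. Reads of Rpl12, Rplp0 and Rplp1 may be shared with pseudogenes, since the treatment of reads with several matches is not given in the sources used here.

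Of the 10477 genes tested, 756 were called, 348 higher and 408 lower in S38D than in S38A (7.22% in either direction, 3.32% higher and 3.89% lower). The S38D cells had more RNA for the growth factor gene Wnt10a, the peptide hormone gene Adm, the potassium channel subunit gene Kcnab2 and the linker histone gene H1f0. They had less RNA for the magnesium transporter gene Slc41a2, the chemokine receptor gene Ackr4 and another linker histone gene, H1fx. A difference of at least 2-fold was found for 253 of the called genes, 153 higher and 100 lower. Of the called genes 115 lay on chromosome 12, of which 108 were lower in S38D, and they are described apart. Outside it 341 genes were higher and 300 lower among 10094 tested (6.35% called, 3.38% higher and 2.97% lower). Scaled to the spike-in RNA, 258 genes were higher and 144 lower, so the balance of the directions rests on the scaling. The count was 217 without S38A replicate 1, 244 without S38A replicate 2, 1351 without S38D replicate 1, 1382 without S38D replicate 2, and 105 when the 2 groups were fitted alone. The fit of the 2 groups alone took the spread from their own libraries, where the main fit took it from all 12 libraries. In bulk RNA, a gene expressed in fewer cells and a gene with less RNA per cell cannot be told apart.

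**Figure D1:**
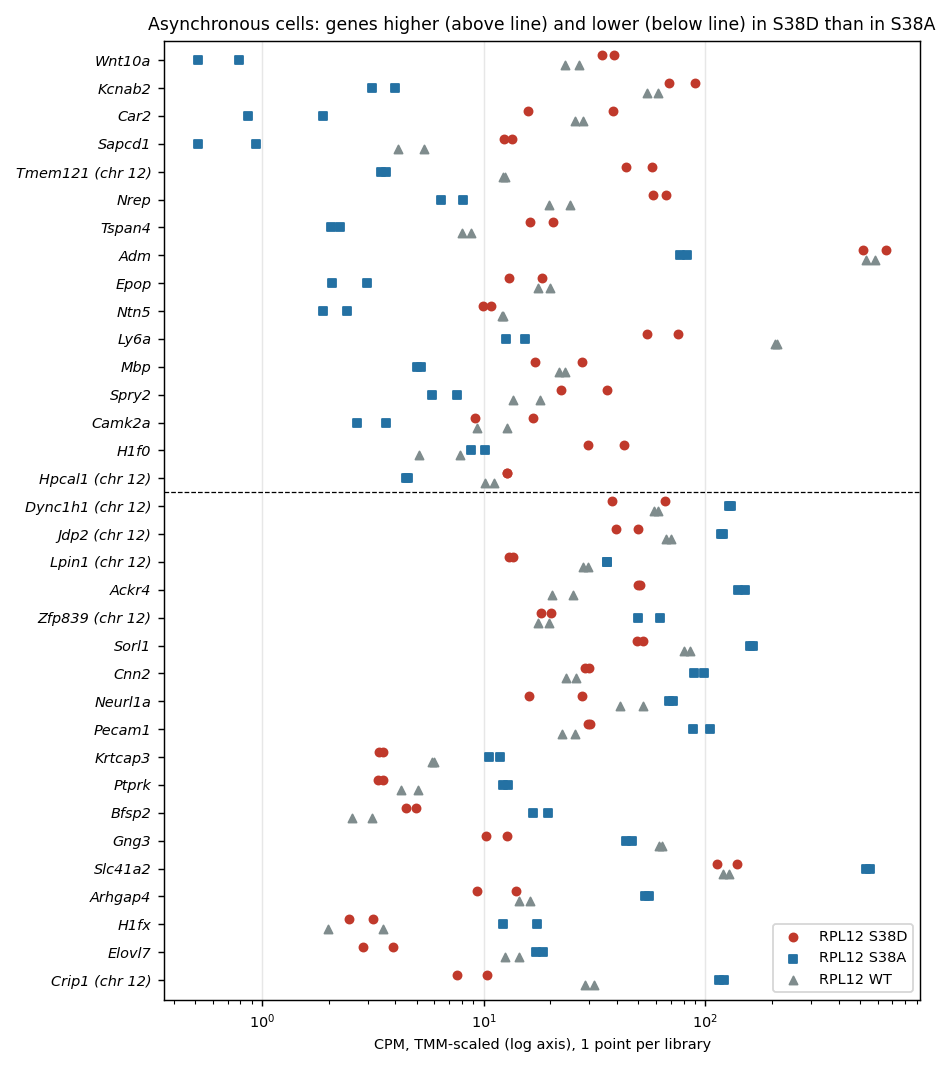
Level of the ranked genes reported here in CPM on a log axis, 1 point per library, in asynchronous S38D (circles), S38A (squares) and WT (triangles) cells, with genes higher in S38D than in S38A above the dashed line and genes lower below it. In every row the S38D circles and the S38A squares do not overlap, which the ranking required. The WT triangles lie outside both lines in some rows, for example above both in Ly6a and Gng3 and below both in Ackr4.

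Several of the genes with the largest rise encode secreted or surface proteins. Wnt10a (chr1:74791516-74804179), a secreted ligand of Wnt receptors, had 38.7 and 34.1 CPM in S38D, against 0.788 and 0.517 CPM in S38A and 23.3 and 26.9 CPM in WT. The S38A libraries held 5 and 3 reads of it, and the fitted difference was 5.74 on the log2 scale (SE 0.268, adjusted p = 1.26e-09). Adm (chr7:110627661-110629820), which encodes the vasodilator peptide adrenomedullin, had 655 and 518 CPM in S38D, 83.2 and 76.9 CPM in S38A and 529 and 586 CPM in WT. Its difference was 2.87 (SE 0.129, adjusted p = 1.26e-09), with S38A alone far below WT (-2.80, adjusted p = 1.55e-09, against 0.07, adjusted p = 0.735, for S38D). Ly6a (chr15:74994877-74998031), the lipid-anchored surface protein Sca-1, had 75.1 and 54.8 CPM in S38D and 15.4 and 12.6 CPM in S38A, while WT lay above both lines at 210.0 and 207 CPM. The tetraspanin gene Tspan4 differed by 3.09 and Ntn5, of the netrin family of guidance proteins, by 2.26. Each of these 5 genes was higher in both S38D libraries than in either S38A library, which the ranking required.

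The other ranked genes that rose were of several kinds. Kcnab2 (chr4:152390742-152477871), the beta subunit of voltage-gated potassium channels, had 90.3 and 68.4 CPM in S38D, against 3.15 and 3.97 CPM in S38A and 54.4 and 61.2 CPM in WT (log2 difference 4.48, SE 0.230, adjusted p = 4.05e-09). Its annotated span overlaps Nphp4 on the other strand, and reads of overlapping genes could be split by the authors' counting. Car2, carbonic anhydrase 2, had 15.9 and 38.4 CPM in S38D and 1.89 and 0.862 CPM in S38A (log2 difference 4.25, SE 0.516, adjusted p = 0.00171). The S38D libraries of Car2 were far from each other, and its call was lost when the 2 groups were fitted alone. Spry2, a feedback inhibitor of receptor tyrosine kinase signalling to ERK, had 22.3 and 36.2 CPM in S38D, against 7.56 and 5.86 CPM in S38A and 18.0 and 13.6 CPM in WT. Camk2a, a calcium-dependent kinase, differed by 2.05 and Mbp, the myelin basic protein gene, by 2.14. Nrep, whose product was first known from neurons, had 66.2 and 58.3 CPM in S38D and 6.46 and 8.10 CPM in S38A. Sapcd1 rose by 4.08 and Epop, whose product joins elongin BC to the Polycomb complex PRC2, by 2.62.

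Transporters, receptors and enzymes were among the genes that fell outside chromosome 12. Slc41a2 (chr10:83230848-83337882), a magnesium transporter, had 139.6 and 113 CPM in S38D, 532 and 551 CPM in S38A and 128 and 121 CPM in WT (log2 difference -2.10, SE 0.133, adjusted p = 6.60e-08). Ackr4 (chr9:104084157-104126933), a scavenging receptor for chemokines, had 50.6 and 49.7 CPM in S38D and 140.4 and 151 CPM in S38A, with WT below both at 25.2 and 20.4 CPM. The fatty acid elongase gene Elovl7 differed by -2.40, the G protein subunit gene Gng3 by -1.97, and the receptor phosphatase gene Ptprk by -1.87. Gng3 was an exception in its WT level, since WT had 61.6 and 64.1 CPM, above 12.7 and 10.3 CPM in S38D and 44.0 and 46.7 CPM in S38A. Other ranked genes that fell were the calponin gene Cnn2 (-1.67), the beaded filament gene Bfsp2 (-1.94), the GTPase activator gene Arhgap4 (-2.22, in a span that overlaps Naa10 and L1cam on the same strand) and the sorting receptor gene Sorl1 (-1.67). Neurl1a, a ubiquitin ligase gene, differed by -1.67 and Krtcap3 by -1.70.

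Of the 14 ranked genes that rose outside chromosome 12, S38A was called below WT in 13 and S38D above WT in 5 and below it in 1. Of the 14 that fell, S38A was called above WT in 11 and below it in 1, and S38D below WT in 5 and above it in 1. The comparisons with WT share libraries with each other and with the one described here, so these counts only place the levels. The genes were ranked by the difference between the lines, so at least 1 line was bound to lie away from WT. The share of all genes called against WT is not reported here. With the 7 chromosome 12 genes described below, all 35 ranked genes were also called in the same direction in the mitotic libraries, and 33 of them kept their call under every alternative that tested them. Of all genes tested, 17.7% were called in the mitotic libraries. Both libraries of one line lay above both libraries of the other in 45% of all genes tested, so the separation by itself was common.

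Linker and variant histones were called in both directions. Of 17 tested genes 4 were higher and 2 lower in S38D, with a median log2 difference of 0.12, against a median of 0.01 over all genes tested and 7.22% called. H1f0 (chr15:79028450-79030504), the linker histone of resting and differentiated cells, had 29.4 and 43.0 CPM in S38D, against 8.82 and 10.2 CPM in S38A and 7.82 and 5.10 CPM in WT (log2 difference 1.93, SE 0.279, adjusted p = 0.00106). Hist1h1c, which encodes linker histone H1.2, had 184 and 182 CPM in S38D, against 69.0 and 75.7 CPM in S38A and 169.9 and 188 CPM in WT, a rise of 1.34 (SE 0.110, adjusted p = 1.00e-06). H1fx (chr6:87980421-87981637), a variant linker histone, went the other way, with 3.18 and 2.47 CPM in S38D, against 17.5 and 12.2 CPM in S38A and 3.52 and 1.98 CPM in WT. So S38A lay apart from WT in Hist1h1c and H1fx, and S38D in H1f0. The core histone genes Hist1h4i and Hist1h2bc rose by 0.77 and 0.52, and H2afv changed by -0.45. Without S38D replicate 1 the list had 5 genes higher and 3 lower, and without S38D replicate 2 it had 4 of each. Without either S38A replicate it had 3 higher and 1 lower, and with the 2 groups alone 2 higher and 1 lower. Its median turned to -0.10 without S38A replicate 2, so no direction is given for the list.

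**Figure D2:**
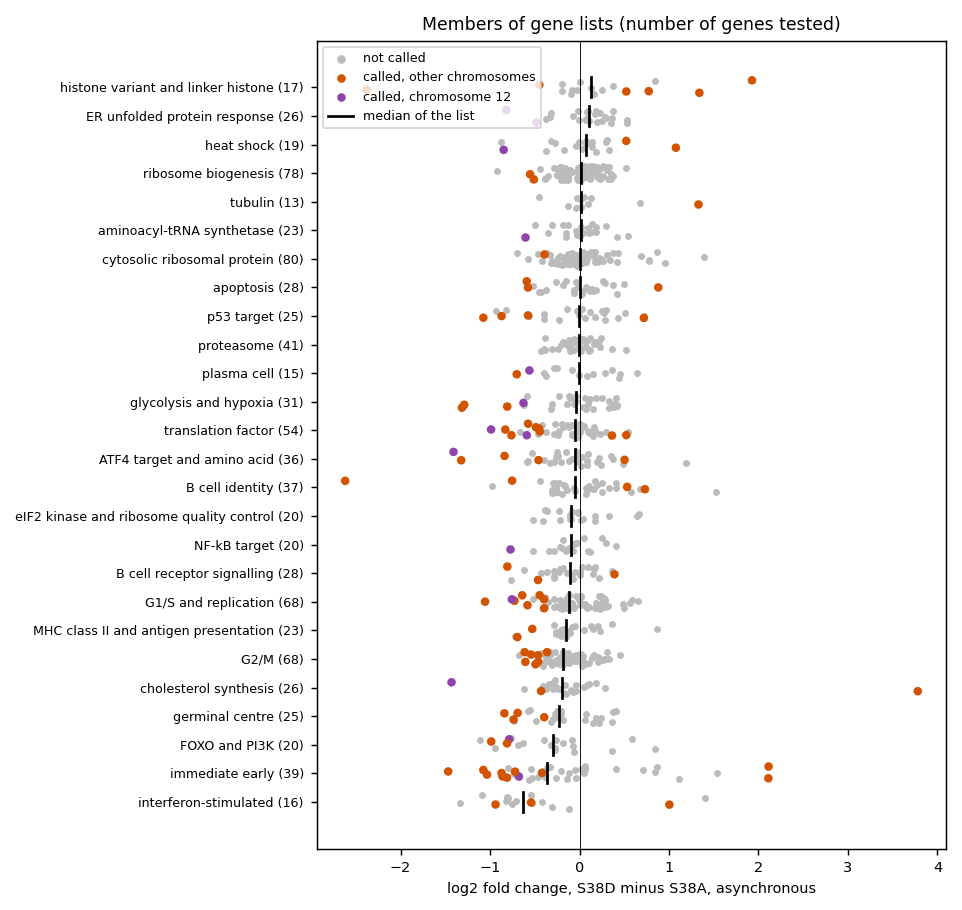
Log2 difference (S38D minus S38A, asynchronous) of each tested member of the gene lists with at least 10 tested genes, with the number tested in brackets, called genes in colour and the median of each list as a bar. The medians of the lists lie between -0.63 (interferon-stimulated) and 0.12 (histone variant and linker histone), and called members stand on both sides of 0 in several lists.

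Immediate early genes, the quick responders to growth factors and stress, were called in both directions. Of 39 tested 9 fell and 2 rose (28.2% called, against 7.22% of all genes tested), and the median log2 difference was -0.36, or -0.30 over the 36 outside chromosome 12. The median was -0.13 without S38A replicate 1, -0.47 without S38A replicate 2, -0.15 without S38D replicate 1 and -0.52 without S38D replicate 2. Btg2, an antiproliferative cofactor of mRNA decay, had 43.5 and 39.8 CPM in S38D, 86.0 and 89.5 CPM in S38A and 81.7 and 77.1 CPM in WT (log2 difference -1.08, SE 0.137, adjusted p = 0.000150). Gadd45b, a stress sensor, had 34.4 and 32.5 CPM in S38D and 64.0 and 57.6 CPM in S38A, with WT at 29.7 and 30.9 CPM. Myc, the growth-promoting transcription factor, differed by -0.87 (adjusted p = 0.00642), and whether its reads include those of the Myc transgene was not tested. The regulator of G protein signalling Rgs2 differed by -0.72, the phosphatase genes Dusp1 and Dusp2 by -1.47 and -0.42, and the zinc finger genes Klf4, Klf2 and Zfp36l1 by -1.03, -0.81 and -0.68. Both genes that rose, Spry2 and Spred2, encode inhibitors of the ERK pathway, at 2.11 and 2.11. Fewer immediate early genes fell under other settings, 5 under spike-in scaling, 1 with the 2 groups alone, and 3 and 4 without S38A replicates 1 and 2. Without either S38D replicate 10 fell.

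Of 37 B cell identity genes 2 rose and 2 fell (10.8% called, against 7.22% of all genes tested). Without S38D replicate 1 the list had 2 genes higher and 8 lower, without S38D replicate 2 it had 6 higher and 4 lower, and without S38A replicates 1 and 2 it had 2 and 1 calls. The IgM Fc receptor gene Fcmr fell to 44.1 and 34.5 CPM in S38D, against 67.1 and 65.5 CPM in S38A, while the CD45 phosphatase gene Ptprc had 70.4 and 72.7 CPM in S38D and 47.1 and 39.0 CPM in S38A, a rise of 0.73 (adjusted p = 0.0116). Cd72, an inhibitory coreceptor, rose by 0.53. Ms4a1, which encodes CD20, had 1420.0 and 1301 CPM in S38D and 1308 and 1223 CPM in S38A and was not called. Of 25 germinal centre genes 4 fell and none rose (16% called), with a median of -0.23. Nuggc, which encodes the GTPase SLIP-GC, and S1pr2, the receptor that keeps B cells in the germinal centre, differed by -0.69 and -0.40, and Neil1, a base excision repair enzyme, by -0.84. Without either S38A replicate, or under spike-in scaling, 1 germinal centre gene was called, and without S38D replicates 1 and 2 the lower genes numbered 6 and 5 and the higher ones 0 and 2. No germinal centre gene was called with the 2 groups alone. B cell receptor signalling genes had 1 of 28 higher, the kinase gene Pik3cd (0.39), and 2 lower, the phosphatase gene Inpp5d (-0.46) and the adaptor gene Lat2 (-0.81), 10.7% in all. Without either S38A replicate this list had no call, and without S38D replicate 1 it had 1 gene higher and 7 lower. MHC class II genes had 2 of 23 lower, Rfx5, a regulator of the class, and H2-DMb2, a peptide loading chaperone, and plasma cell genes 2 of 15 lower, Tent5c and the chromosome 12 gene Sdc1. The MHC class II and plasma cell lists had 5 and 4 calls without S38D replicate 1, and 1 and 0 without S38A replicate 1.

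Some markers listed for other cell types were measured well above 0 and fell in S38D. Pecam1, an adhesion molecule of endothelium and leukocytes, had 29.4 and 30.2 CPM in S38D, against 105 and 87.8 CPM in S38A and 22.7 and 25.8 CPM in WT. The filament gene Vim had 89.8 and 109 CPM in S38D and 194 and 191 CPM in S38A, and the beta globin gene Hbb-bt 631 and 556 CPM in S38D and 1185 and 1270.4 CPM in S38A. They were 3 of 6 tested genes of the stromal, epithelial and erythroid list (50% called). Of all genes tested 7.22% were called and 3.89% were lower. Under spike-in scaling, and with the 2 groups alone, the list also had 3 lower genes. The defining erythroid markers Hba-a1, Gata1 and Alas2 had no read in the 4 libraries, and neither had Col3a1 or Krt8. Hbb-bt shares near-identical sequence with its paralog Hbb-bs, so its reads could have been split.

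Of 68 G2/M genes 7 fell and none rose (10.3% called), with a median of -0.19, and the 68 genes of G1/S and replication included 8 that fell and none that rose (11.8% called), with a median of -0.11. Of all genes tested 7.22% were called and 3.89% were lower. Cdc25b, the phosphatase that starts mitosis, had 2323 and 1731 CPM in S38D and 2888 and 2816 CPM in S38A (log2 difference -0.49, adjusted p = 0.0196). The kinetochore gene Spc24 and the separase gene Espl1 differed by -0.46 and -0.54. Dnmt1, the maintenance DNA methyltransferase, had 438 and 322 CPM in S38D, 875 and 706 CPM in S38A and 202 and 281 CPM in WT, a difference of -1.06 (SE 0.173, adjusted p = 0.00300). Its partner at replicated DNA, Uhrf1, differed by -0.73 and the transcription factor gene E2f2 by -0.64. No G2/M gene was called under spike-in scaling, with the 2 groups alone, or without either S38A replicate, and without S38D replicates 1 and 2 15 and 10 were lower and 1 and 1 higher. For the G1/S genes the count of lower genes was 3 under spike-in scaling, 0 with the 2 groups alone, and 2 and 4 without S38A replicates 1 and 2, while without S38D replicates 1 and 2 it was 15 and 11, beside 2 and 3 higher genes. The G1/S median was -0.04 without S38D replicate 1.

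Genes of translation gave 10 calls among 54 translation factors, 8 lower and 2 higher (18.5% called, against 7.22% of all genes tested). Their median was -0.05, or -0.15 without S38D replicate 1. The cap-binding factor Eif4e had 133 and 142 CPM in S38D and 94.2 and 97.6 CPM in S38A, a rise of 0.52 (adjusted p = 0.00778), and the reinitiation factor Denr rose by 0.36. Eif5, the GTPase activator of initiation, had 41.5 and 52.7 CPM in S38D and 97.1 and 89.8 CPM in S38A (-0.99, adjusted p = 0.000599), but Eif5 and Eif2b2 lie on chromosome 12. Outside it Eif5b, the subunit-joining GTPase, differed by -0.83, the scaffold genes Eif4g1 and Eif4g3 by -0.58 and -0.76, and Eef2, the translocase that docks at the stalk base, by -0.49. Eif4b and Pabpc4 also fell, each by less than 2-fold. No translation factor was called with the 2 groups alone, and 2 were lower without S38A replicate 1 and 2 without S38A replicate 2, against 12 and 9 without S38D replicates 1 and 2. Of 80 cytosolic ribosomal protein genes 1 was called, Rpl13a (-0.40, adjusted p = 0.0371), whose span also holds small nucleolar RNA genes. Of 78 ribosome biogenesis genes Nop2 and Nop53 fell, and none of 20 genes of eIF2 kinases and ribosome quality control was called. Without S38D replicate 1 the ribosomal protein genes had 3 higher and 3 lower, the biogenesis genes 2 higher and 9 lower, and the eIF2 kinase and quality control genes 1 higher and 3 lower. Without S38D replicate 2 they had 1 higher and 3 lower, 4 higher and 6 lower, and 2 lower. Without either S38A replicate none of the 3 lists had a call.

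Ddit4, an inhibitor of mTORC1 and a target of ATF4, had 245 and 241 CPM in S38D, against 639 and 577 CPM in S38A and 444 and 481 CPM in WT, a difference of -1.32 (SE 0.102, adjusted p = 7.67e-07). Of 36 ATF4 targets and amino acid genes 4 fell and 1 rose (13.9% called), with a median of -0.06. Of all genes tested 7.22% were called, 3.32% higher and 3.89% lower. Chac1, which degrades glutathione, had 11.1 and 11.8 CPM in S38D and 21.3 and 19.8 CPM in S38A, and Atf4 itself differed by -0.46, while the arginine transporter gene Slc7a1 rose by 0.50. Glycolysis and hypoxia genes had 4 of 31 lower and none higher, among them Aldoc, an aldolase (-1.29), and Pfkp, a phosphofructokinase (-0.81). Tm7sf2, a sterol reductase, had 6.05 and 5.83 CPM in S38D, against 0.630 and 0.172 CPM in S38A and 10.2 and 9.35 CPM in WT, and was the only gene of 26 in the cholesterol list that rose (3.78, SE 0.547, adjusted p = 0.000464; 4 and 1 reads in S38A). Lpin1, on chromosome 12, and the sterol isomerase gene Ebp (-0.43) fell, and the median of the cholesterol list was -0.20. Of 28 apoptosis genes the survival gene Bcl2 rose by 0.88, and the survival gene Mcl1 and the death gene Bbc3 differed by -0.59 and -0.58. Bst2, an interferon-induced tether of virus particles, had 70.5 and 70.0 CPM in S38D and 38.9 and 31.0 CPM in S38A, against 2 lower genes, Irf1 and Dtx3l, among 16 interferon-stimulated genes tested. Of 20 FOXO and PI3K genes 3 fell, of which Tsc22d3, the glucocorticoid-induced leucine zipper, differed by -0.99 (adjusted p = 8.42e-05). Of 25 p53 targets Zmat3 rose by 0.72, and Btg2, Ddb2 and Bbc3 fell. The neuronal beta tubulin gene Tubb3 was the only 1 of 13 tubulin genes called, with 74.2 and 56.4 CPM in S38D, 28.4 and 23.6 CPM in S38A and 22.7 and 27.5 CPM in WT. Of 7 mitochondrially encoded mRNAs mt-Nd5 rose by 0.62, and no proteasome gene of 41 was called. The share called was 12.9% in the glycolysis list, 11.5% in the cholesterol list and 10.7% in the apoptosis list. It was 18.8% in the interferon list, 15% in the FOXO list, 16% in the p53 list, 14.3% in the mitochondrial list and 7.69% in the tubulin list. Of the proteasome genes 8 were lower without S38D replicate 1, and 3 were higher and 2 lower without S38D replicate 2. The lower genes without S38D replicates 1 and 2 numbered 8 and 7 in the ATF4 list, 9 and 5 in the cholesterol list, 5 and 4 in the glycolysis list, 5 and 3 in the FOXO list and 3 and 5 in the p53 list. Without S38A replicates 1 and 2 they numbered 2 and 2 in the ATF4 list, 2 and 1 in the cholesterol list, 2 and 2 in the glycolysis list, 2 and 2 in the FOXO list and 1 and 2 in the p53 list. The apoptosis and interferon lists had 4 and 5 calls without S38D replicate 1, 7 and 2 without S38D replicate 2, and 1 each without S38A replicate 1. The ATF4 median was -0.20 without S38D replicate 1. The mt-Nd5 call was lost without either S38A replicate.

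In some lists the genes that fell lay on chromosome 12. In the ER unfolded protein response list both genes that fell, Pdia6 and Dnajb9, lie there, and 0 of 23 others were called. The only call among 20 NF-kB targets was Nfkbia, the inhibitor of NF-kB, also on chromosome 12, with 652 and 767 CPM in S38D and 1306 and 1125 CPM in S38A. The same held for Wars among 23 aminoacyl-tRNA synthetases and for Hsp90aa1, the only chaperone gene of 19 in the heat shock list that fell, where Hspb1 and Hspe1 rose. The share called was 7.69% for the unfolded protein response, 5% for NF-kB targets, 4.35% for synthetases and 15.8% for heat shock, against 7.22% of all genes tested. None of these lists had a call with the 2 groups alone. Under spike-in scaling the unfolded protein response and synthetase lists had none either. Without S38D replicates 1 and 2 the median was 0.14 and 0.03 in the unfolded protein response list and -0.18 and 0.01 among NF-kB targets. It was -0.06 and 0.10 among synthetases and -0.05 and 0.14 in the heat shock list. The sign thus changed with the S38D library left out in all but the unfolded protein response list. In other lists a part of the genes that fell lay on chromosome 12. Outside it the lower genes numbered 8 of 36 immediate early, 7 of 66 G1/S, 3 of 35 ATF4, 3 of 30 glycolysis and 2 of 19 FOXO genes. The glycolysis median outside it was -0.004, against -0.04 over the whole list.

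Chromosome 12 genes as a group were lower in S38D than in S38A. Their median log2 difference was -0.49 over 383 genes (quartiles -0.76 and -0.26), 336 of the 383 lay below 0, and 115 were called (30%), 7 higher (1.83%) and 108 lower (28.2%). The medians of the other nuclear chromosomes lay between -0.05 and 0.07. Chromosome 12 held 1.86% and 1.99% of gene reads in S38D, against 2.74% and 2.69% in S38A and 2.02% and 2.01% in WT. The S38D share was thus near that of WT, and the S38A share above both. Side by side, the chromosome's median was -0.06 for S38D against WT and 0.46 for S38A against WT. Within each library, the chromosome 12 genes had a median offset from the other genes of -0.28 and -0.21 in S38D and of 0.27 and 0.24 in S38A (log2, each gene relative to its mean over the 4 libraries). Every 10 Mb stretch of the chromosome had a median below 0, from -0.31 to -0.75, with 6 to 68 tested genes in a stretch. In terms of the median, S38A cells had 1.41 times the RNA of S38D cells from these genes.

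**Figure D3:**
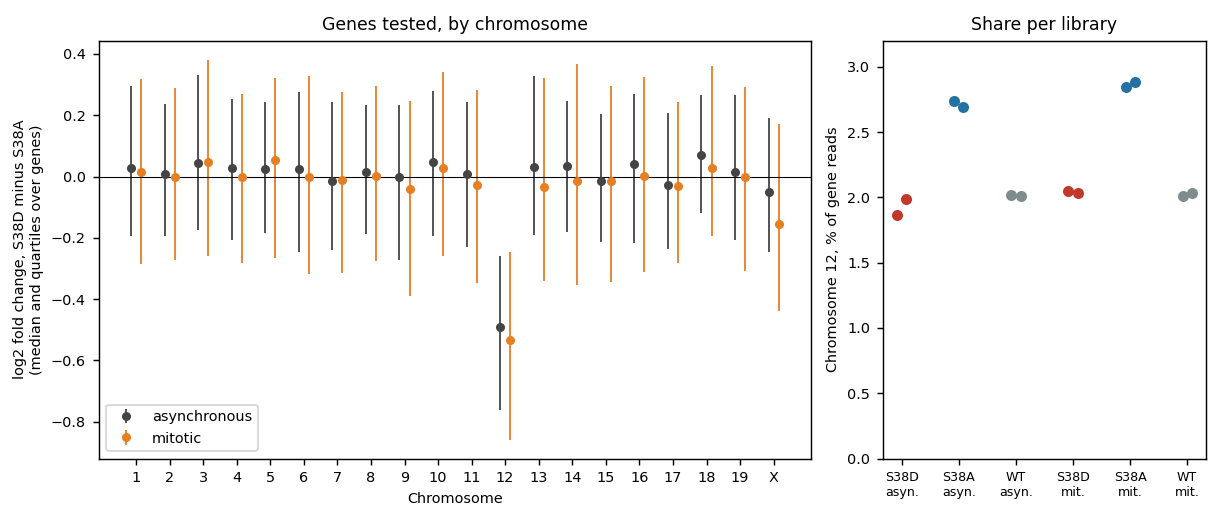
Left, median and quartiles over genes of the log2 difference (S38D minus S38A) for each chromosome, in asynchronous and in mitotic cells; right, share of gene reads on chromosome 12 in percent, 1 point per library, by line and state. Chromosome 12 alone lies near -0.5 in both states, and the 4 S38A libraries hold 2.69% to 2.88% of reads there, against 1.86% to 2.05% in the S38D libraries.

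Crip1 and Tmem121, neighbours near the end of chromosome 12, differed most in opposite directions. Their promoters (RefSeq, GRCm38.p6, plus strand, 250 bases before the start of the gene to 50 after it) are shown because the genes lie close together, with Tedc1 between them, and differed in opposite directions, with each CG in capitals.
Crip1 promoter, chr12:113151762-113152061: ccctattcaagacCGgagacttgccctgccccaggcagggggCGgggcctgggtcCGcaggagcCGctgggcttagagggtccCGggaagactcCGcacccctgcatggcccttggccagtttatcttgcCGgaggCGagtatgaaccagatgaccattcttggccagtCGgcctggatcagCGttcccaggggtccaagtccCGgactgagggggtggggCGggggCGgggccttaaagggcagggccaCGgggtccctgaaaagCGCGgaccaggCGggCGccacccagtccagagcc
Tmem121 promoter, chr12:113185653-113185952: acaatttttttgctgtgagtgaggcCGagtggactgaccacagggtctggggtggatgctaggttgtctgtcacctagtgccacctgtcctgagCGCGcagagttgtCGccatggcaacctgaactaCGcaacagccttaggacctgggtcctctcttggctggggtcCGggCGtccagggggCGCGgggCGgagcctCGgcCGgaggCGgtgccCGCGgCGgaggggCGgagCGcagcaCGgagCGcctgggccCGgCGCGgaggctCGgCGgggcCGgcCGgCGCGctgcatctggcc
The Crip1 window holds 18 CG and the Tmem121 window 29, and 29.7% and 12.9% of 32851 RefSeq promoter windows of the same length hold as many, while 94.6% hold at least 1. These counts describe the sequences only. Crip1, a small LIM domain protein, had 10.3 and 7.60 CPM in S38D, against 121 and 115 CPM in S38A and 28.5 and 31.5 CPM in WT (log2 difference -3.71, SE 0.171, adjusted p = 1.26e-09). WT lay between the lines, with S38D called below it (-1.73) and S38A above it (1.98). Tmem121, a transmembrane protein, had the reverse order, with 57.6 and 44.0 CPM in S38D, 3.62 and 3.45 CPM in S38A and 12.5 and 12.2 CPM in WT (log2 difference 3.84, SE 0.211, adjusted p = 8.99e-09). Of the genes around them, the immunoglobulin mu constant gene Ighm differed by -0.90 (adjusted p = 0.000102) and the Notch ligand gene Jag2 by 1.57 (adjusted p = 0.0141), while Crip2, next to Crip1 on its other side, and Mta1 beyond it differed by -0.34 and -0.94 without a call (adjusted p = 0.753 and 0.38). The other gene that qualified among those that rose, the calcium sensor gene Hpcal1, had 12.7 and 12.7 CPM in S38D and 4.57 and 4.48 CPM in S38A. Further down the ranking Zfp839, Lpin1, a phosphatidate phosphatase, Jdp2, a repressor of AP-1, and Dync1h1, the dynein heavy chain, differed by -1.55, -1.43, -1.41 and -1.32, and the Dync1h1 call was lost when the 2 groups were fitted alone.

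The same comparison in mitotic cells used other libraries of the same lines. There 1851 genes were called (17.7%), 787 higher (7.51%) and 1064 lower (10.2%) in S38D, or 394 higher and 819 lower under spike-in scaling. Of the 756 genes called in asynchronous cells, 567 were called there too (75% of the asynchronous and 30.6% of the mitotic calls), 566 of them in the same direction. The sign was the same in 741 of the 756. On chromosome 12, 92 of 115 genes were called again, all in the same direction, beside 40.5% of all chromosome 12 genes tested, and the chromosome's median was -0.53. Wnt10a differed by 4.95 in mitotic cells, Adm by 1.87 and Crip1 by -3.92, with 4.53 and 4.17 CPM in S38D and 70.5 and 61.2 CPM in S38A. The histone pattern was there as well, with H1f0 at 2.28, Hist1h1c at 0.96 and H1fx at -1.92. Tubb3 and Ptprc, called in asynchronous cells, differed by 0.36 and 0.03 in mitotic cells and were not called. Neither gene was called in the test of a change between states given below. Both states share the same 2 lines, so a difference that the lines had apart from codon 38 cannot be told apart from one that came with it.

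**Figure D4:**
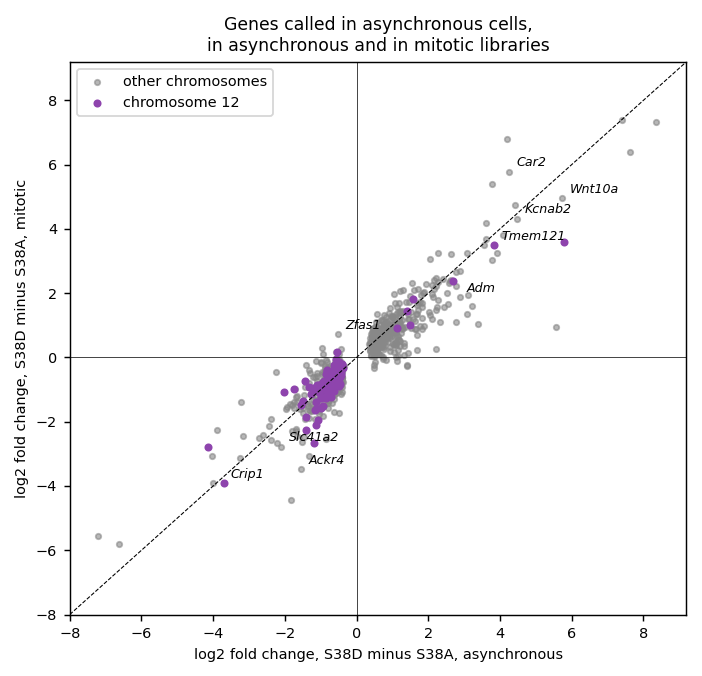
Log2 difference (S38D minus S38A) of the 756 genes called in asynchronous cells, in asynchronous libraries on the horizontal and in mitotic libraries on the vertical axis, with chromosome 12 genes in purple and the line of equal values dashed. The sign is the same in both states for 741 genes.

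A test of whether the difference between the lines itself differed between states called 4 genes (0.0382%), against 852 at an unadjusted p under 0.05. Ackr4, the chemokine scavenger, had 4.53 and 3.80 CPM in S38D and 49.2 and 43.6 CPM in S38A mitotic libraries, so that the difference between the lines was larger in mitotic than in asynchronous cells, at -3.47 against -1.54. Trib3, a pseudokinase induced by ATF4, had 92.6 and 77.8 CPM in S38D and 104 and 110.0 CPM in S38A asynchronous libraries, a difference that was not called (-0.33, adjusted p = 0.138). In mitotic libraries Trib3 had 26.6 and 24.5 CPM in S38D and 75.2 and 71.8 CPM in S38A. Top1, DNA topoisomerase I, differed by -0.49 in asynchronous and -1.73 in mitotic cells. Zfas1, a noncoding host RNA of small nucleolar RNAs, was the 1 gene called in opposite directions. It had 351 and 407 CPM in S38D and 528 and 548 CPM in S38A asynchronous libraries, and 822 and 778 CPM in S38D and 506 and 460.2 CPM in S38A mitotic libraries.

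**Figure D5:**
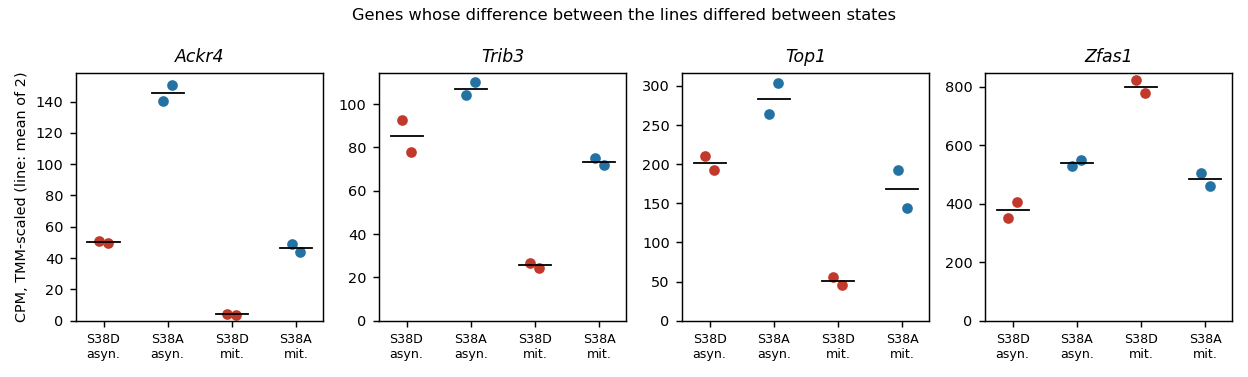
CPM of the 4 genes whose difference between the lines differed between states, 1 point per library with the mean of 2 as a line, in S38D and S38A asynchronous (asyn.) and mitotic (mit.) cells. In Zfas1 the S38D points lie below the S38A points in asynchronous cells and above them in mitotic cells; in the other 3 genes they lie below in both.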

How the data were processed

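Reads were sequenced to 51 nt from the 3′ end of mRNA, per the labels' protocols, from total RNA of cleared polysome lysates mixed with ERCC spike-in RNA. Per the submitters' processing notes, the tools were STAR 2.5.3a, cutadapt 1.12 and bcl2fastq 2.16.0.10, on build mm10. The counting tool with its annotation and strand setting is not given in the sources used here. The authors deposited whole-number read counts for 51826 genes and 92 spike-ins per library, without normalization. Symbols and positions came from GENCODE M21 on GRCm38 (51633 identifiers matched) and promoters from RefSeq. The filterByExpr rule (minimum count 10, by group) kept 10477 genes. All 12 libraries entered 1 edgeR 4.0.16 fit (R 4.3.3) with TMM scaling and a mean per group, with robust quasi-likelihood F tests and Benjamini-Hochberg adjustment within each of 3 comparisons. SEs come from the F statistic.

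Ranked genes were called, had a mean of at least 10 CPM in the higher group, libraries apart and no predicted or clone name. The first 14 in each direction were taken, and of chromosome 12 the first 5, of which 2 that rose qualified. The 3 members of each of 31 lists with the smallest adjusted p were eligible if called, and the first 4 in each direction of the difference between states. Some genes that enter the counts are not reported here by name. Other called list members and the neighbours of Crip1 were named after their values were seen. The comparison, genes and lists were chosen with earlier results of these data known. Alternatives were DESeq2 1.42.0, limma-voom (limma 3.58.1), other scalings and filters, robust estimation off, only the groups compared, replicate blocks and each library left out, where the library left alone in its group was taken to vary as the others do. The gene reads per library (3432875 to 6587997) set the precision, for counting error only.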

Additional observations from a re-analysis of the deposited data

Results flagged for a closer look

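The difference between S38D and S38A itself differed between mitotic and asynchronous cells in 4 genes, by the edgeR test of that difference. Zfas1 had a value of 1.23 (mitotic minus asynchronous, log2, SE 0.157, adjusted p = 0.00730). Ackr4 had -1.94 (SE 0.273, adjusted p = 0.0135), Top1 -1.24 (SE 0.206, adjusted p = 0.0467) and Trib3 -1.20 (SE 0.188, adjusted p = 0.0337). All 4 lost their call under spike-in scaling, with adjusted p-values of 0.261 for Zfas1, 0.064 for Ackr4 and 0.128 for Top1 and Trib3, and without either S38A asynchronous replicate. Zfas1 alone kept its call in edgeR with robust estimation off (adjusted p = 0.0442) and in limma-voom (adjusted p = 0.0322). DESeq2 called 13 genes, of which only 1, Zfas1, was among the 4. Over the libraries left out, the value lay between 1.15 and 1.36 for Zfas1, -2.05 and -1.82 for Ackr4, -1.41 and -0.99 for Top1, and -1.30 and -1.04 for Trib3.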

How the results depend on the processing

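The count of 756 genes in asynchronous cells was 402 under spike-in scaling, 451 by DESeq2 and 105 with only the groups compared, and 217 to 1382 with a library left out, lowest without S38A replicate 1 and highest without S38D replicate 2. The mitotic count of 1851 was 1213, 1065 and 3123 under the same settings, and 707 to 967 with a library left out. For the difference between states, 4 genes became 0 under spike-in scaling, 23 without the filter, 1 with robust estimation off, 13 by DESeq2, 1 by limma-voom, 2 with only the groups compared and 0 to 323 with a library left out, highest without S38D asynchronous replicate 2. The chromosome 12 median of -0.49 was -0.42 under spike-in scaling, -0.37 without the filter and -0.57 to -0.48 with a library left out, and its 115 calls were 51 under spike-in scaling, 16 with only the groups compared and 40 to 134 with a library left out. Rpl12 lay between -0.62 and -0.26 with a library left out. Rplp0, at 0.01, was -0.017 with TMM factors computed without chromosome 12 and -0.093 to 0.096 with a library left out, and Rplp1 was -0.080 to 0.16. The causes were not tested. Replicate numbers did not pair the S38D with the S38A asynchronous libraries, whose replicate differences had a correlation of -0.40 across 7062 genes. The S38A asynchronous libraries also had -0.36 with S38A mitotic and -0.36 with WT mitotic libraries. Of 15 pairs of groups 3 were above 0.1, S38D asynchronous with WT mitotic at 0.79, S38D asynchronous with S38A mitotic at 0.59 and S38A mitotic with WT mitotic at 0.55. With the replicate block 809 genes were called, 367 higher and 442 lower, and with the numbers crossed, an alternative added after seeing the data, 911, 411 higher and 500 lower. Differences under the counting error of genes near the minimum count of 10 were not detectable at this depth.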
